A study of Rattus norvegicus with 8 samples.

Results

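The transcription factors Spi1, Runx1, Irf8, Irf5, Cebpa, Cebpb, Maf, Mitf and Tfec, which direct the formation and the gene programmes of myeloid cells, were followed in injured rat spinal cord. These 9 genes were chosen by name, with earlier results of these data known, out of 18166 genes measured. Each of the 9 had 1 probe set whose platform annotation gave only its symbol, so no choice between probe sets was needed. Total RNA from thoracic spinal cord of male Long Evans rats, approximately 175 days old and 400 g, had been hybridised to 8 Affymetrix Rat Gene 2.0 ST arrays. Of these, 4 arrays (called SCI) held cord injured at a thoracic level, and 4 (called sham) held cord of sham-injured rats. Both groups first ate chow with 17% fat, recovered for 4 weeks, and were then moved to a palatable high-fat diet with 40% fat, so the diet does not differ between them. A stated 8 weeks may count the diet alone or the whole study. The labels name neighbouring but different thoracic segments for the cord piece in separate places, and where the lesion lay within the thoracic cord is unknown here. The design text counts 10 rats and the labels do not tie an array to an animal, so the p-values measure the spread between these samples.

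Spi1 encodes PU.1, an ETS-domain factor that opens the enhancers of macrophages and microglia and without which neither lineage forms. Runx1 acts upstream of it in blood formation, Irf8 binds DNA together with PU.1, and Irf5 lies downstream of Toll-like receptors and, in spinal microglia after nerve injury, downstream of Irf8. Cebpa and Cebpb are basic leucine zipper factors of granulocyte and monocyte differentiation and of inflammatory gene induction. Maf acts in mature tissue macrophages, and Mitf and Tfec are basic helix-loop-helix factors of the MiT/TFE family, which drives lysosomal and osteoclast genes. Some of these genes have other sources in cord: Maf is also made by neurons of the dorsal horn, and Mitf by melanocytes and, at lower levels, many other cells.

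All values are RMA signals on the log2 scale, on which a difference of 1 is a doubling. A gene was called higher or lower at a Benjamini-Hochberg adjusted p under 0.05 from a limma fit over all 18166 genes. Array medians lay between 3.73 and 3.81. SCI 3, sham 1 and sham 2 stood apart from the other 5 arrays on the second principal component (-17.18 to -12.62 against 4.53 to 14.79), so the members are also given without these 3 arrays. The defining genes of cord tissue were bright in the sham arrays, with means of 10.87 for Gfap of astrocytes, 11.68 for Mbp of oligodendrocytes and 7.66 for Rbfox3 of neurons. RNA came from whole tissue, so more cells of a type and more RNA per cell cannot be told apart.

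In injured cord 7 of the 9 factors were higher than in sham and 0 were lower, against 7.1% higher and 7.06% lower among all genes. At an unadjusted limma p under 0.05 the counts were also 7 and 0. The rises were led by Tfec (3.08-fold), Spi1 (2.95-fold) and Maf (2.49-fold), followed by Irf8 (1.80-fold), Cebpa (1.78-fold), Irf5 (1.67-fold) and Runx1 (1.55-fold). Mitf and Cebpb did not pass the test. In the same 7 genes every SCI array lay above every sham array, which was so for 9.36% of all genes. The median change over the 9 members was 0.83, and over all genes it was -0.01. In the same arrays all 17 macrophage and microglia markers and 4 of 8 fibroblast and meningeal markers were higher, while 9 of 9 neuron markers and 6 of 7 oligodendrocyte markers were lower. The part of these shifts in the rise of the factors was not tested.

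**Figure D1:**
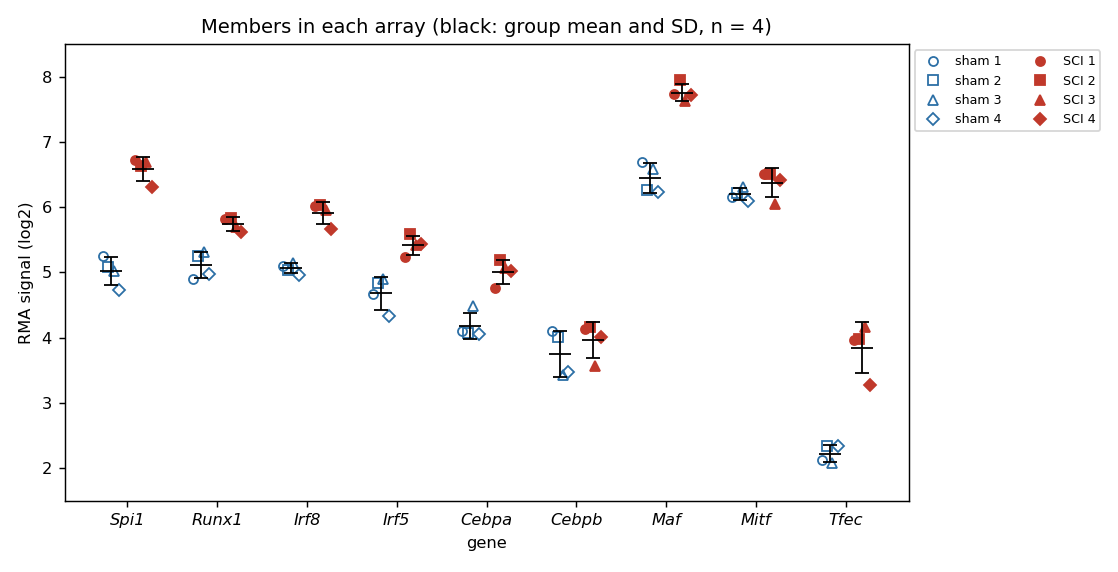
RMA signal (log2, vertical axis) of each of the 9 factors (horizontal axis) in every array, with open blue symbols for sham and filled red symbols for SCI, and the group mean with its SD in black (n = 4). The groups are apart for all factors but Cebpb and Mitf, and the SCI 4 symbol is the lowest red one for Spi1, Runx1, Irf8 and Tfec.

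Spi1 (probe set 17763934) read 6.72, 6.63, 6.68 and 6.31 in SCI 1 to SCI 4, and 5.25, 5.09, 5.03 and 4.73 in sham 1 to sham 4. The lowest SCI array, SCI 4, was 1.06 above the highest sham array, the widest gap of the 9 members. Sham 4 was the lowest sham array, but the array numbers do not pair the groups. The mean rose from 5.02 ± 0.21 to 6.58 ± 0.18 (log2, SD, n = 4), a change of 1.56 with an SE of 0.13 and an adjusted p of 5.6e-05. Spi1 had the rank 82 among the 18166 genes ordered by rise. Without SCI 3, sham 1 and sham 2 its change was 1.67 (adjusted p = 0.0055).

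Runx1 (probe set 17668012), the core-binding factor that sets up definitive blood formation and stays on in myeloid cells, read 5.82, 5.84, 5.70 and 5.61 in the SCI arrays and 4.90, 5.26, 5.32 and 4.97 in the sham arrays. The groups were 0.30 apart, and the sham arrays spread more widely (SD 0.20) than the SCI arrays (SD 0.11). The change was 0.63 (SE 0.12, adjusted p = 0.0055). Without the 3 arrays that stood apart it was 0.61 and no longer passed (adjusted p = 0.066). Within arrays, Spi1 minus Runx1 was larger in every SCI array (0.70 to 0.99) than in any sham array (-0.29 to 0.35), a difference of 0.93. Its exact two-sided permutation p of 0.029 is the smallest that 70 assignments of 4 arrays against 4 can give, and it became 0.057 when adjusted over the 4 pairs of factors compared in this way. The unequal rise of these 2 genes therefore missed the threshold after adjustment. At this smallest p, passing depends on the p-values of the other pairs, so the miss does not show an equal rise.

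The ETS family, to which Spi1 belongs, held 19 other tested genes, of which 4 were higher and 0 lower (6 and 0 at an unadjusted limma p under 0.05), with a median of 0.17. Elk3, a repressor of the ternary complex group, rose by 0.82 (SE 0.11, adjusted p = 7.1e-04). Fli1, a factor of blood and endothelium, rose by 0.64 (SE 0.15), Elf1 by 0.56 (SE 0.16) and Etv6, a repressor needed in bone marrow, by 0.44 (SE 0.12). Fli1 missed the test without the 3 arrays (adjusted p = 0.20) and with a number from the sample titles as covariate (0.097). The meaning of this number is not given. It was 4, 6, 7 and 8 in the SCI arrays and 5, 9, 10 and 11 in the sham arrays, so it partly goes with the group. Etv6 missed the test without any 1 of SCI 1, SCI 2, sham 1, sham 3 and sham 4 (0.054 to 0.082). Elf1 missed it without any 1 array but SCI 3 and SCI 4 (0.072 to 0.11) and with arrays centred on their median (0.051). The closest relatives of Spi1 were dim and did not pass: Spib, of B cells and plasmacytoid dendritic cells, had 0.07 (SE 0.24), and Spic, of splenic red pulp macrophages, had -0.31 (SE 0.15, adjusted p = 0.22). Ets1 and Ets2 had 0.13 and 0.07. The other ETS genes, Gabpa, Elf2, Elf4, Etv1, Etv3, Etv4, Etv5, Elk1, Elk4, Erg and Erf, did not pass, with values from -0.25 for Etv1 to 0.33 for Elf4. Of 6 relatives and partners of Runx1, 2 were higher and 0 lower (also at an unadjusted limma p under 0.05). They were the bone and cartilage factor Runx2 (0.65, SE 0.16, adjusted p = 0.022) and Cbfb, the subunit through which RUNX proteins gain affinity for DNA (0.50, SE 0.14, adjusted p = 0.039). Runx2 missed the test without any 1 array but SCI 4, sham 1 and sham 4 (0.057 to 0.065), and Cbfb without any 1 array but sham 3 and sham 4 (0.051 to 0.099). Neither passed without the 3 arrays (0.21 and 0.19), nor did Cbfb with arrays centred on their median (0.060). Runx3, of T and NK cells, had 0.13 (SE 0.25), and the corepressors Runx1t1, Cbfa2t2 and Cbfa2t3 had -0.09, 0.01 and 0.15.

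**Figure D2:**
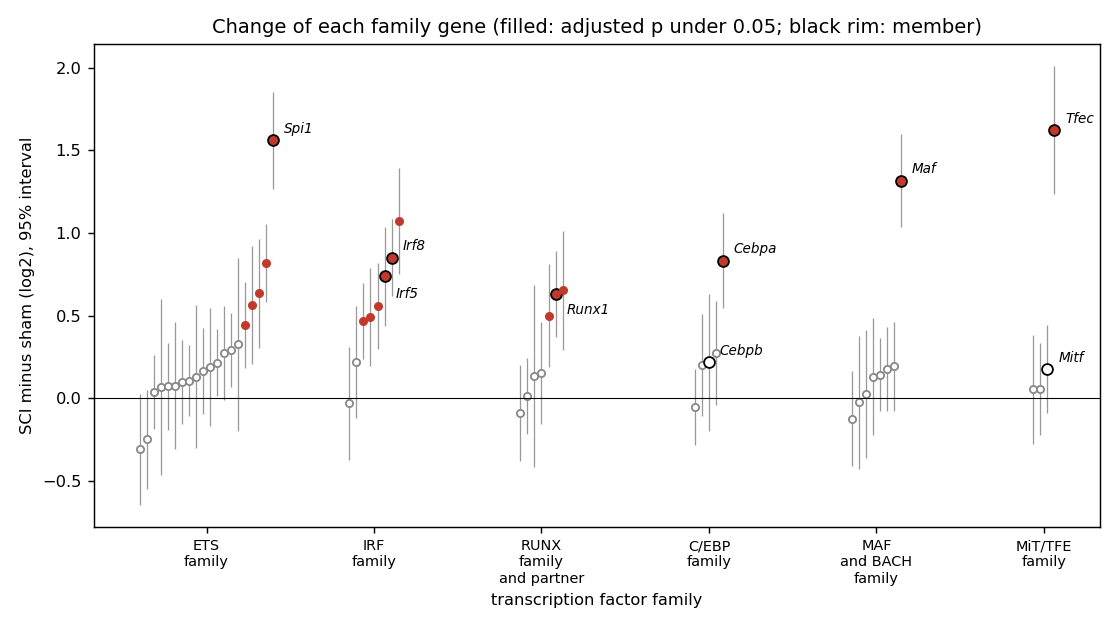
Change from sham to SCI (log2, vertical axis) with its 95% interval for each tested gene of the 6 transcription factor families (horizontal axis, genes of a family in order of change); filled red symbols passed at an adjusted p under 0.05 and black rims mark the 9 members. Spi1, Cebpa, Maf and Tfec had the largest change of their families, while in the IRF family Irf7 and in the RUNX family Runx2 lay above the members.

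Irf8 (probe set 17730667), the partner of PU.1 in monocytes and microglia, read 6.01, 6.03, 5.95 and 5.67 in the SCI arrays and 5.10, 5.04, 5.15 and 4.96 in the sham arrays. The sham arrays agreed within an SD of 0.08, the smallest sham SD of the 9 members. SCI 4 and sham 4 were the lowest of their groups. The change was 0.85 (SE 0.11, adjusted p = 5.7e-04), and without the 3 arrays it was 0.85 (adjusted p = 0.029).

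Irf5 (probe set 17782073) read 5.23, 5.58, 5.42 and 5.44 in the SCI arrays and 4.66, 4.83, 4.89 and 4.33 in the sham arrays. The groups were 0.34 apart, with sham 4 below the other sham arrays. Irf5 rose by 0.74 (SE 0.14, adjusted p = 0.0052), and without the 3 arrays the change was 0.80 and did not pass (adjusted p = 0.063). Irf8 minus Irf5 overlapped between the groups (0.23 to 0.78 in SCI and 0.21 to 0.64 in sham). The difference of the 2 changes was 0.11, with an exact permutation p of 0.49, also 0.49 when adjusted over the 4 pairs, so a different rise of Irf8 and Irf5 was not shown, nor was an equal one.

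Of the 6 other IRF genes tested, 4 were higher and 0 lower (also at an unadjusted limma p under 0.05). Irf7, the amplifier of type I interferon, rose by 1.07 (SE 0.15, adjusted p = 9.5e-04), more than either member on this scale, a difference that was not tested. Irf9, the DNA-binding subunit of the complex that answers type I interferon, rose by 0.56 (SE 0.12), Irf1 by 0.49 (SE 0.13) and its antagonist Irf2 by 0.47 (SE 0.10). Irf1 missed the test without any 1 array but sham 1 and sham 2 (0.051 to 0.092). Irf9 and Irf2 missed it without the 3 arrays (0.053 and 0.094) and with the title number as covariate (0.073 and 0.067). Irf4, of lymphocytes and dendritic cells, had -0.03 (SE 0.16), and Irf3 had 0.22 (SE 0.15), which passed only when SCI 4 was left out (0.38, adjusted p = 0.048).

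Cebpa (probe set 17615517) read 4.76, 5.19, 5.07 and 5.02 in the SCI arrays and 4.10, 4.07, 4.48 and 4.06 in the sham arrays. Sham 3 was the one sham array near the SCI range, and the groups were 0.28 apart. Cebpa rose by 0.83 (SE 0.13, adjusted p = 0.0021). Without the 3 arrays the change was 0.72 and did not pass (adjusted p = 0.071).

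Cebpb (probe set 17769209) read 4.13, 4.17, 3.56 and 4.02 in the SCI arrays and 4.10, 4.01, 3.42 and 3.47 in the sham arrays. The groups overlapped: SCI 3 read lower than sham 1 and sham 2, and these are the same 3 arrays that stood apart on the second principal component. The difference over all arrays was 0.22 (SE 0.19, 95% interval -0.20 to 0.63, adjusted p = 0.53). Without these 3 arrays it was 0.66 and passed (adjusted p = 0.028). For Cebpb they are the lowest SCI array and the 2 highest sham arrays, so leaving them out had to raise the difference. With the title number as covariate the difference was -0.029 (SE 0.18, adjusted p = 0.95). Under the other alternatives it was 0.11 to 0.35 and did not pass, so neither a rise nor a fall of Cebpb was shown. Cebpa minus Cebpb differed by 0.62 between the groups, with overlapping arrays (0.63 to 1.51 in SCI and 0.002 to 1.06 in sham) and an exact permutation p of 0.14, or 0.19 adjusted over the 4 pairs. Without the 3 arrays the difference was 0.065.

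Of the 3 other C/EBP genes tested, 0 passed in either direction (also 0 at an unadjusted limma p under 0.05). Cebpg, which pairs with other family members, had 0.27 (SE 0.14), Cebpe, of late granulocytes, had 0.20 (SE 0.14), and Ddit3, the stress-induced inhibitory member, had -0.05 (SE 0.10).

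Maf (probe set 17733823) read 7.74, 7.94, 7.62 and 7.72 in the SCI arrays and 6.69, 6.26, 6.58 and 6.23 in the sham arrays. The groups were 0.93 apart, with little spread among the SCI arrays (SD 0.13). Maf rose from 6.44 ± 0.23 to 7.76 ± 0.13 (log2, SD, n = 4), a change of 1.32 (SE 0.13, adjusted p = 1.3e-04), and without the 3 arrays it was 1.39 (adjusted p = 0.0068). Of 9 other markers of the dorsal horn neurons that express Maf, 1 was higher and 2 were lower, with a median of 0.04. Slc17a6, the vesicular glutamate transporter, fell by 1.04 (SE 0.14), the synaptic organiser Cbln2 fell by 0.71 (SE 0.15), and Reln rose by 0.39 (SE 0.10), although its call was lost without any 1 of SCI 1, SCI 2, SCI 4, sham 1 and sham 2. The mean level of these 9 genes was 5.70 to 5.83 in the sham arrays and 5.49 to 5.71 in the SCI arrays.

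Of 7 other MAF and BACH genes tested, 0 passed in either direction (also 0 at an unadjusted limma p under 0.05), and their median was 0.13. The haem-sensing repressor Bach1 had 0.18 (SE 0.11), Bach2, of lymphocytes, had 0.19 (SE 0.12), and the small MAF proteins Maff, Mafg and Mafk, partners of Nrf2 and of the BACH factors, had 0.14, -0.02 and 0.03. Mafa, of pancreatic beta cells, and Nrl, of the retina, had -0.12 and 0.13.

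Tfec (probe set 17789837), whose expression is largely restricted to macrophages and related cells, read 3.96, 3.99, 4.17 and 3.27 in the SCI arrays and 2.13, 2.35, 2.08 and 2.34 in the sham arrays. The groups were 0.93 apart, and SCI 4 stood below the other SCI arrays. The mean rose from 2.22 ± 0.14 to 3.85 ± 0.39 (log2, SD, n = 4), a change of 1.62 (SE 0.18, adjusted p = 2.5e-04), and without the 3 arrays it was 1.53 (adjusted p = 0.017). The sham levels of Tfec, Cebpb, Cebpa and Irf5 lay below the median level of all genes of 4.74. RMA tends to compress differences at dim probe sets, and without detection calls none of these genes is called absent.

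Mitf (probe set 17785648) read 6.51, 6.51, 6.05 and 6.42 in the SCI arrays and 6.16, 6.22, 6.31 and 6.10 in the sham arrays. The groups overlapped, with SCI 3 below every sham array and the other SCI arrays above every sham array. The difference was 0.18 (SE 0.12, 95% interval -0.09 to 0.44, adjusted p = 0.40), and 0.28 without the 3 arrays (adjusted p = 0.25). Mitf minus Tfec was lower in every SCI array (1.89 to 3.14) than in any sham array (3.76 to 4.23). The difference of the 2 changes was -1.45, with an exact permutation p of 0.029, the smallest possible, and 0.057 adjusted over the 4 pairs. The other MiT/TFE genes, the lysosomal regulators Tfeb and Tfe3, had 0.05 (SE 0.15) and 0.05 (SE 0.13), and 0 of these 2 had an unadjusted limma p under 0.05.

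The windows just upstream of Mitf and Tfec are shown because these relatives differed in whether they passed the test. They are the 250 bases before the start of each gene in RefSeq, build GRCr8, written 5′ to 3′ on the strand of the gene, at chr4:131965490-131965739 (plus strand) for Mitf and chr4:46146201-46146450 (minus strand) for Tfec. Capitals mark matches to the motifs searched. Windows were matched for 8 of the 9 members, all but Spi1, in the RefSeq table used here, with 1 window per gene, although Mitf is known to have several promoters.
Mitf: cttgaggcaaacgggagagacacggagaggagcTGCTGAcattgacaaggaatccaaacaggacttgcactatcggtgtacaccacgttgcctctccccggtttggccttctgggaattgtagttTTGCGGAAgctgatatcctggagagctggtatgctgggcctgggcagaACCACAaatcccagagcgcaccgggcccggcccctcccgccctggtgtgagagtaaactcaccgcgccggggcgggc
Tfec: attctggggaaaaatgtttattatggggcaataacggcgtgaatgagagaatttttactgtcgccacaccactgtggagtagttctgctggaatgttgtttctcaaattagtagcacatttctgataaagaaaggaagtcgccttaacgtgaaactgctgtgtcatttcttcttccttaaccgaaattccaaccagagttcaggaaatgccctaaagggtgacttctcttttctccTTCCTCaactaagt

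The motifs were searched on both strands. The core of the PU.1 site, GAGGAA, occurred in 1 of the 8 windows, that of Tfec, where its reverse complement begins 14 bases before the start of the gene. Of all 33469 windows of this length in RefSeq, 23.3% held it. The ETS-IRF composite GGAANNGAA (7.74% of all windows), the interferon response element GAAANNGAA (8.12%) and the E-box CACGTG (5.59%) occurred in 0 of the 8. The E-box CATGTG (12.1% of all windows) occurred in the Runx1 window. The RUNX motif TGTGGT (14.5%), the C/EBP motif TTGCNNAA (9.22%) and the MAF core TGCTGA (15.1%) each occurred in the Mitf window alone, at 77, 125 and 217 bases before the start. The windows also differed in base composition. G and C made up 37.2% of the Runx1 window and 40.8% of that of Tfec, against 60% to 80% of the other 6 and a median of 51.2% over all windows. CpG pairs numbered 6 in each of the first 2 and 14 to 45 in the other 6, against a median of 5 over all windows. A match is a string of letters, not a measured binding site.

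All 17 tested markers of macrophages and microglia were higher in SCI, with changes from 0.43 to 4.17 and a median of 1.61. Their mean level was 6.21 to 6.52 in the sham arrays and 7.66 to 8.13 in the SCI arrays. SCI 4, which was the lowest SCI array for Spi1, Runx1, Irf8 and Tfec, was also the lowest for these markers. Of the other factors that rose, Maf was lowest in SCI 3, and Irf5 and Cebpa in SCI 1. SCI 4 was also the lowest SCI array for the homeostatic microglia, monocyte, osteoclast, melanocyte, endothelial and fibroblast lists. It was the highest for the astrocyte, neuron and oligodendrocyte lists. Whether the factors follow any of these lists was not tested. Tfec and Spi1 changed about as much as the mean of the macrophage and microglia markers (1.57), with 6 and 10 of the 17 markers changing more. Maf was exceeded by 10 of the markers, Irf8, Cebpa and Irf5 by 15 each, Runx1 by 16, and Mitf and Cebpb by all 17.

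Markers of the other cells of the cord moved as well. The 9 neuron markers were all lower, with a median of -0.58 and a mean level of 9.05 to 9.18 in the sham arrays and 8.46 to 8.71 in the SCI arrays. Neurofilament Nefm fell by 0.62 (SE 0.10) and synaptophysin, Syp, by 0.58 (SE 0.09). Leaving out SCI 2 kept 5 of these calls, leaving out the 3 arrays that stood apart kept 1, and the covariate kept 2. Of 7 oligodendrocyte markers 6 were lower, with a median of -0.69, led by the myelin lipid enzyme Fa2h, which fell by 1.09 (SE 0.11), and by the myelin glycoprotein Mog, which fell by 0.78 (SE 0.10). Their mean level was 9.61 to 9.69 in the sham arrays and 8.90 to 9.13 in the SCI arrays. Of 8 fibroblast and meningeal markers 4 were higher and 0 lower (7 and 0 at an unadjusted limma p under 0.05), with a median of 0.64. The collagen chain Col1a2 rose by 1.00 (SE 0.13) and Col1a1 by 0.93 (SE 0.17), and 1 of the 4 calls was left without the 3 arrays. Their mean level was 6.12 to 6.57 in the sham arrays and 6.87 to 7.31 in the SCI arrays. Of 7 astrocyte markers 2 were higher, Gfap (0.81, SE 0.09) and the gap junction protein Gja1 (0.59, SE 0.10), and 1 was lower, the glutamate transporter Slc1a2 (-0.39, SE 0.11), which passed without SCI 4 or sham 1 but missed the test without any other single array (0.064 to 0.088). Of 7 endothelial markers 1 was higher, the cadherin Cdh5 (0.68, SE 0.14), and 0 were lower (1 and 1 at an unadjusted limma p under 0.05). The median of this list was -0.16, and Flt1 had -0.40 (SE 0.13, adjusted p = 0.077). Gja1 and Cdh5 missed the test without the 3 arrays (0.085 and 0.10).

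Of 8 homeostatic microglia markers 5 were higher and 0 lower (6 and 0 at an unadjusted limma p under 0.05), with a median of 0.56. The matrix protein Olfml3 rose by 1.14 (SE 0.16), the nucleotide receptor P2ry13 by 0.68 (SE 0.12), the fructose transporter Slc2a5 by 0.67 (SE 0.14) and the fractalkine receptor Cx3cr1 by 0.43 (SE 0.09). The related receptor P2ry12 reached 0.45 (SE 0.16, adjusted p = 0.085) and passed without sham 3 (0.58, adjusted p = 0.023), against -0.10 (SE 0.17) for Tmem119. Sall1, the factor that maintains microglial identity, had -0.10 (SE 0.12), a gene named after its value was seen. Without SCI 3, sham 1 and sham 2, 15 of the 17 markers and 2 of the 8 homeostatic markers were higher. Of 8 monocyte markers, 0 passed in either direction (also 0 at an unadjusted limma p under 0.05), among them the chemokine receptor Ccr2 (0.11, SE 0.29). Of 12 neutrophil markers 2 were higher, the collagenase Mmp8 (1.43, SE 0.20) and the G-CSF receptor Csf3r, and the list median was 0.04. Of 8 dendritic cell markers 0 passed (1 was lower at an unadjusted limma p under 0.05, Flt3), and of 8 T, B and NK cell markers 1 was higher, Cd3g (0.49, SE 0.11), from a level of 1.82, which missed the test without the 3 arrays (0.078) and with the title number as covariate (0.065). Of 7 melanocyte markers, a cell type in which Mitf is the master regulator, 0 were higher and 1 was lower, Sox10 (-0.34). At an unadjusted limma p under 0.05, 2 were higher and 1 was lower, and the list median was -0.05. Sox10, which oligodendrocytes make too, lost its call without any 1 of SCI 2, SCI 3, sham 3 and sham 4 (0.051 to 0.060). Tyrp1 (0.87, adjusted p = 0.11), Dct (0.23, adjusted p = 0.16) and Pmel (-0.22, adjusted p = 0.19) did not pass. Of 5 osteoclast and giant cell markers 2 were higher, the protease Ctsk (2.73, SE 0.21) and Atp6v0d2 (0.87, SE 0.26), whose adjusted p was 0.047 and was over 0.05 without any 1 array but SCI 1 and SCI 4. Mmp9 had -0.18 (SE 0.21).

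**Figure D3:**
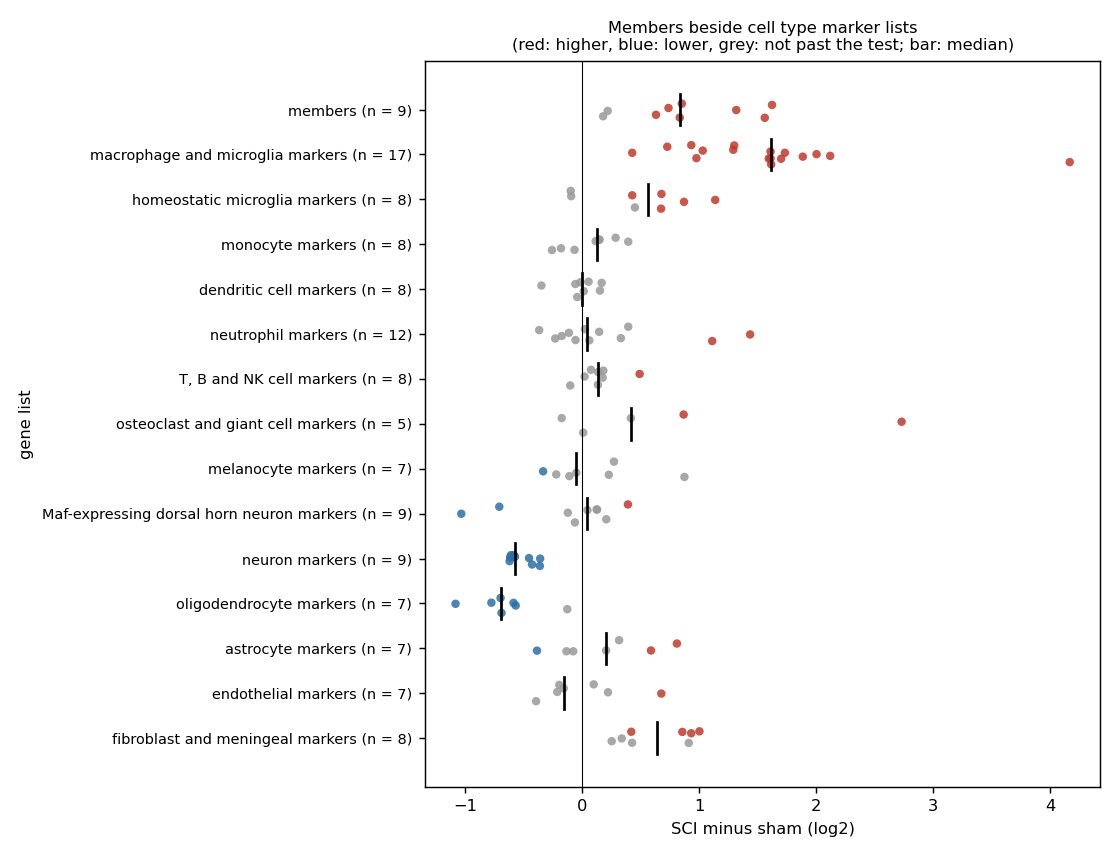
Change from sham to SCI (log2, horizontal axis) of the 9 members and of 14 lists of cell type markers (vertical axis, n genes tested); red passed upward, blue passed downward, grey did not pass, and the black bar is the median of the list. The members (median 0.83) lie between the macrophage and microglia markers (1.61) and the homeostatic microglia markers (0.56), and the medians of the monocyte, dendritic, neutrophil and lymphocyte lists lie between -0.002 and 0.13. The neuron and oligodendrocyte lists (-0.58 and -0.69) lie below 0 and the fibroblast and meningeal list (0.64) above it.

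The ligands and receptors through which myeloid cells receive survival and differentiation signals were read from a list of 11 tested genes, of which 4 were higher and 0 lower (4 and 2 at an unadjusted limma p under 0.05). Csf1r, the receptor on which microglia depend and a direct target of PU.1 and Runx1, rose by 0.93 (SE 0.10, adjusted p = 2.8e-04). The common beta chain of the GM-CSF, IL-3 and IL-5 receptors, Csf2rb, rose by 0.98 (SE 0.13) and Csf3r by 1.11 (SE 0.17). The ligand Csf1 rose by 0.35 (SE 0.09, adjusted p = 0.023), a call lost without any 1 of SCI 1, SCI 2, sham 1 and sham 2 (0.055 to 0.069), while the other ligand of Csf1r, Il34, which neurons make, had 0.004 (SE 0.11). Csf2 and Csf3, the ligands of the other receptors, had 0.24 (SE 0.16) and 0.01 (SE 0.18). The receptors Il3ra, Kit and Flt3 had 0.06, 0.13 and -0.35, and Kitlg, the ligand of Kit, had -0.24, none of which passed. Csf3r and Csf1 missed the test without the 3 arrays (0.059 and 0.18).

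Genes known as targets of Spi1, of Irf8 and Irf5, of Mitf and Tfec and of the C/EBP factors were read next, from lists of which all but that of Mitf and Tfec share genes with the macrophage and microglia markers. Of 16 targets of Spi1 tested, 15 were higher and 0 lower (also 15 and 0 at an unadjusted limma p under 0.05), with a median of 1.02. Of the 16, 9 are not in the marker list, of which 8 were higher. Leaving out the listed markers cannot tell more cells from more RNA per cell. The adaptor Tyrobp rose by 1.89 (SE 0.14), the integrin chain Itgb2 by 1.56 (SE 0.13), the oxidase subunit Cybb by 2.04 (SE 0.18) and Cd14, the coreceptor for endotoxin, by 1.70 (SE 0.16). The exception was Ncf4, named after its value was seen, at 0.06 (SE 0.10). Of 15 targets of Irf8 and Irf5, 7 were higher and 0 lower (9 and 0 at an unadjusted limma p under 0.05), with a median of 0.43. The 13 that are not in the marker list had 5 higher and a median of 0.42. P2rx4, the ATP-gated channel that Irf5 induces in spinal microglia, rose by 0.93 (SE 0.13, adjusted p = 0.0011), and Aif1 rose by 0.98 (SE 0.13). The cytokine targets Il12b, Tnf, Il1b and Il6, named after their values were seen, had 0.04, 0.12, 0.12 and -0.02, from sham levels of 2.46 to 3.21.

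Of 11 targets of Mitf and Tfec, 5 were higher and 0 lower (9 and 1 at an unadjusted limma p under 0.05), with a median of 0.39. Gpnmb rose by 4.93 (SE 0.14) and Ctsk by 2.73, while the lysosomal membrane protein Lamp1 rose by 0.33 (SE 0.08) and lost its call without any 1 of SCI 2, sham 1, sham 2 and sham 3. Of 11 targets of the C/EBP factors, 6 were higher and 0 lower (6 and 1 at an unadjusted limma p under 0.05), with a median of 0.93. The largest change was that of Apoe (1.88, SE 0.10), and the lowest value was that of Arg1 (-0.40, adjusted p = 0.072), named after its value was seen. Arg1 passed as lower with array weights (adjusted p = 0.042) and without SCI 3 (adjusted p = 0.044). The 8 targets that are not in the marker list had 3 higher and a median of 0.37. Without the 3 arrays, 12 of the Spi1 targets, 4 of the Irf8 and Irf5 targets, 2 of the Mitf and Tfec targets and 5 of the C/EBP targets were higher.

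Of 36 other regulators of myeloid cells tested, 11 were higher and 0 lower (19 and 0 at an unadjusted limma p under 0.05), with a median of 0.30. The 4 with the smallest p were Stat6, which transmits IL-4 and IL-13 signals (0.92, SE 0.12), the stress-induced repressor Atf3 (1.16, SE 0.16), the oxysterol receptor Nr1h3, known as LXR alpha (0.77, SE 0.13), and its dimer partner Rxra (0.55, SE 0.10). Without the 3 arrays 4 of the 36 were higher, and with the title number as covariate 7 were. Nr1h3 was among those lost without the 3 arrays (adjusted p = 0.057). Over the 6 families together, 10 of the 43 relatives of the members, or 23.3%, were higher and 0 were lower. Among all genes 7.1% were higher and 7.06% lower. At an unadjusted limma p under 0.05 the relatives gave 12 and 0, and their median was 0.15. Without the 3 arrays only Elk3, Irf7 and Irf1 among the relatives were higher, and with the covariate only Elk3 and Irf7.

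For each factor that passed, the 5 genes with the most similar profile were found by the root mean square difference over the 8 arrays after subtraction of each gene's sham mean. This measure follows the size of the change as well as the pattern among arrays. The profiles nearest to Spi1 were those of Gm2a, the GM2 ganglioside activator of lysosomes, at 0.10, and of Pdpn, Cd8a, Lgmn and Unc93b1 (up to 0.17). Nearest to Tfec were Itgb2 at 0.16, Clec4a3, Cd8a, Slc15a3 and Npl (up to 0.21). Nearest to Maf were Chrdl1 at 0.07, Slc12a7, the integrin chain Itgal, Stom and Rarres1, and nearest to Irf8 were Clic1 at 0.06, Vsir, Cmtm3, Scamp2 and Ncmap. Irf5 lay nearest to Rbl1 at 0.05, Runx1 to Itga6 at 0.08 and Cebpa to Hk2 at 0.10, and Pgghg was among the 5 nearest of both Irf5 and Runx1.

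**Figure D4:**
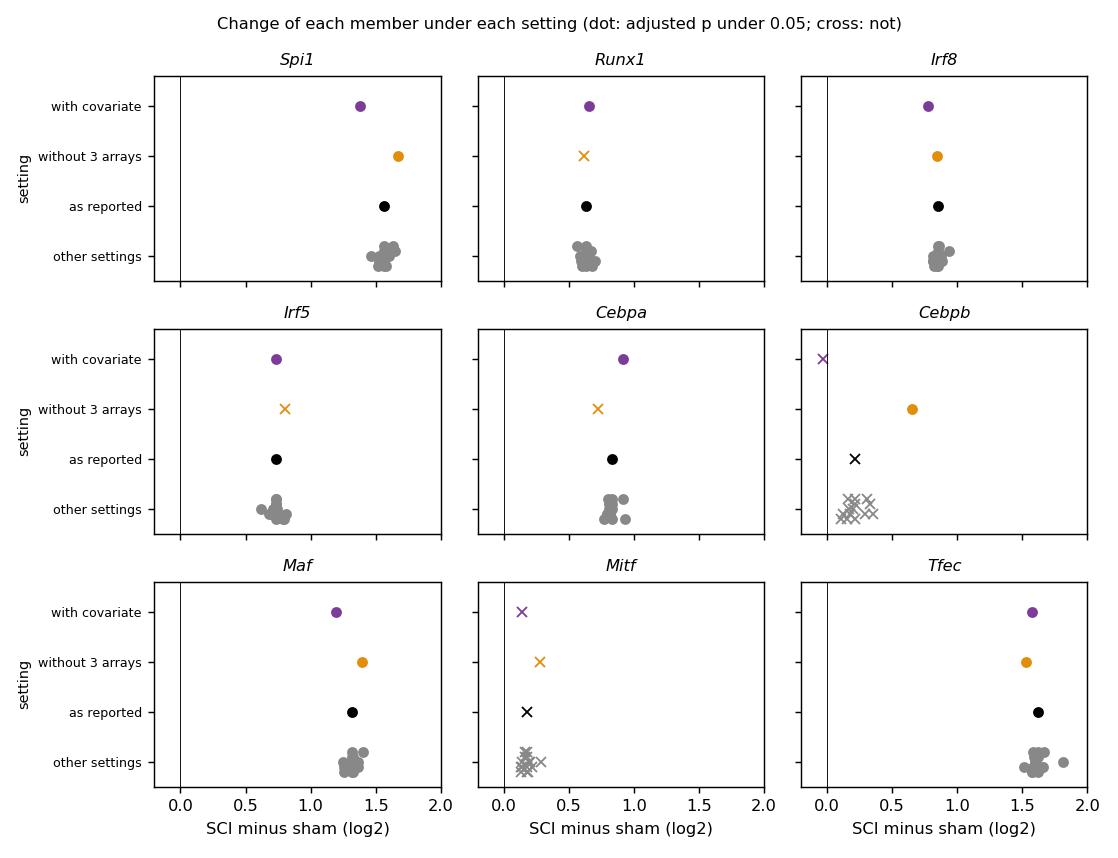
Change from sham to SCI (log2, horizontal axis) of each of the 9 factors under every setting tried (rows: as reported in black, without SCI 3, sham 1 and sham 2 in orange, with the title number as covariate in purple, and all others in grey); dots had an adjusted p under 0.05 and crosses did not. Spi1, Irf8, Maf and Tfec passed under every setting in which they were tested, and Cebpb ran from -0.029 with the covariate to 0.66 without the 3 arrays.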

How the data were processed

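The authors deposited log2 signals computed with RMA in Affymetrix Expression Console, per the submitters' processing notes. RMA corrects background, normalises between arrays and summarises probe sets. No source used here gives versions, probe library or genome build. RMA signals carry no read depth, and the number of arrays, 4 per group, limits the precision.

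Of 36685 probe sets, 18511 had 1 gene symbol, 575 had several and 17599 had none here. Gene IDs of 18394 were found in RefSeq GRCr8, which changed 0 symbols. The brightest probe set was kept per gene. The contrast of SCI minus sham was fitted over 18166 genes in R 4.3.3, using lmFit and eBayes of limma 3.58.1 without covariates, and was checked on simulated data. Pairs of factors were compared by exact permutation of the within-array difference. A planned pair and a list of targets are not reported here.

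The members, the gene lists (28 with the members) and the tests were chosen with earlier results of these data known. Genes were named from the members, relatives and colony-stimulating factor genes, the 4 smallest p of each other list, and genes fixed by name, of which not all are printed. Others are said to be named after their values were seen. Alternatives covered scaling, filtering, probe sets, variance model, array weights, a covariate and left-out arrays.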

Additional observations from a re-analysis of the deposited data

Results flagged for a closer look

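Cebpa in sham 3 read 4.48, while the other sham arrays lay between 4.06 and 4.10. The gap was 0.91 of the range of the sham group, above Dixon's 95% critical value for 4 samples. It was 1 of 18 groups of 4 arrays examined for the 9 members, and chance flags about 1 in 20 such groups. Without sham 3 the change of Cebpa was 0.93 (adjusted p = 0.0014). Sham 3 also had the highest mean level of the sham arrays for the macrophage and microglia markers (6.52) and for the neutrophil markers (3.33). The same held for the homeostatic microglia (6.53), endothelial (5.82) and fibroblast and meningeal markers (6.57). It did not hold for the other marker lists, among them the monocyte markers (4.65 against 4.72 in sham 1). Of the other members, sham 3 was the highest sham array for Irf5, Irf8, Runx1 and Mitf and the lowest for Cebpb and Tfec. Whether Cebpa and these lists move together was not tested.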

How the results depend on the processing

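Of 150 values of the 9 members under the alternatives, 145 kept their direction and their side of the threshold. Irf5, Runx1 and Cebpa missed the threshold without SCI 3, sham 1 and sham 2, a setting with fewer samples. Cebpb passed there, with its lowest SCI value and its highest sham values left out. With the second number of the sample titles as covariate, Cebpb turned from 0.22 to -0.029, and the cause was not tested. The number of higher members was 7 under all alternatives but 2, and 5 in those: without the 3 arrays (Spi1, Irf8, Maf, Tfec and Cebpb) and among genes above the median level, where Cebpa, Cebpb and Tfec are not tested.

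Over all genes, 1290 were higher and 1282 lower. With the covariate the numbers were 813 and 543, without the 3 arrays 563 and 284, and 838 were lower when all probe sets were tested. Leaving out 1 array gave 780 to 1283 lower genes, the fewest without SCI 2, and 838 without sham 4. With arrays centred on their median, 42% of calls were higher, against 50.2% without. Without the 3 arrays Cebpa minus Cebpb was 0.065, against 0.62. The permutation test of a pair doubles the smaller tail, so its p stays above 0.05 once an array is left out, and those differences are values without a test. The title numbers differ between the groups, so no paired analysis was possible because no number is shared.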
